A study of Mus musculus with 8 samples.

Results

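T cells that live between the epithelial cells of the intestine leave a small trace in RNA of isolated crypts, and 41 genes of such cells were followed here among the 55114 genes counted. They encode the chains of the T cell receptor, the CD3 complex and its signalling partners, the coreceptors, surface and homing proteins, cytotoxic effectors, chemokines, natural killer receptors and a pair of transcription factors. The genes were selected on the measured difference between the genotypes in these same mice: the list was drawn up after T cell genes such as Lag3 had stood out in the comparison of all genes. Their differences between genotypes are therefore given as a description, and where counts past a threshold are printed for them, nothing is read from those counts.

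The study sequenced RNA of strained, EDTA-released crypts of 8 mice, all C57BL/6 and 8 weeks old, 4 of them Mex3a KO and 4 their WT littermates. The KO is constitutive, in every cell of the mouse, with exon 1 and a part of exon 2 of Mex3a removed, so lymphocytes lack the gene as well as the epithelium. No cells were sorted, and the cell fraction that passed the strainer was taken whole. Sex is not labelled, but in each genotype the mice numbered 1 and 2 had Y-chromosome transcripts and those numbered 3 and 4 had Xist.

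Intraepithelial lymphocytes sit above the basement membrane and are mostly CD8+ T cells. They include conventional cells with an alpha-beta receptor and a large class with a gamma-delta receptor, many of which carry CD8 as an alpha-alpha homodimer. They bind E-cadherin through the integrin of Itgae and Itgb7, are drawn to the small intestine by Ccl25 acting on Ccr9, and are held in number by epithelial Il15 and, for gamma-delta cells, by butyrophilin-like proteins of the villus epithelium. They store granzymes ready for release. More of them lie in the villus than in the crypt.

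Between 20324184 and 24726221 reads were counted on genes in WT mice and 23489180 to 30654105 in KO mice. Mex3a, as a check of the labels, was at 13.3 CPM (read counts scaled to equal library size) in WT and 0.613 in KO (log2 fold change -4.43, SE 0.43, adjusted p = 0.0310, edgeR's quasi-likelihood test), and it was the only gene of the 16109 tested that passed an adjusted p of 0.05; with a replicate block 0 genes passed. The median log2 fold change of all genes tested was -0.02. CPM is used below to compare mice for a gene, and FPKM, which also divides by gene length, to compare genes.

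The T cell genes were measured at low levels. The constant chain Trac was at 5 to 36 reads per mouse, and the sum of Cd3d, Cd3e and Cd3g came to 42 to 318 reads, against 32785 to 47997 reads of Epcam, a surface protein of all intestinal epithelium. Of the defining T cell markers Cd3d, Cd3e, Cd3g, Cd247, Trac, Trbc2, Cd2 and Lck, none was at 0 in any mouse. With 3 reads taken as the least that can be told from none, the floor lay at 0.0997 to 0.146 CPM. Ifng, Xcl1, Prf1 and Cd2 did not pass the filter on low counts, which left 37 of the 41 genes in the model. That filter asks for 0.420 CPM in 4 mice: 32 genes reached it in all KO mice, but 20 in all WT mice, so 12 could pass through the KO mice alone.

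Summed over all 41 genes, the level was 48.4, 44.3, 66.4 and 120 CPM in WT mice 1 to 4 and 84.6, 106, 267 and 199 CPM in KO mice 1 to 4. The genotypes overlapped, because WT mouse 4 lay above KO mice 1 and 2. The mean was 69.8 CPM ± 35.0 (SD, n = 4) in WT and 164 CPM ± 84.6 (SD, n = 4) in KO, which is 2.35-fold higher in KO. Within WT, the highest mouse was 2.71 times the lowest, and within KO it was 3.16 times the lowest, so the spread inside each genotype was as wide as the difference between them. KO mouse 3 had the highest level of 35 of the 41 genes, KO mouse 4 of 5 and WT mouse 4 of 1, while WT mouse 2 had the lowest of 22. In bulk RNA, fewer cells of a type and less RNA per cell cannot be told apart.

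**Figure D1:**
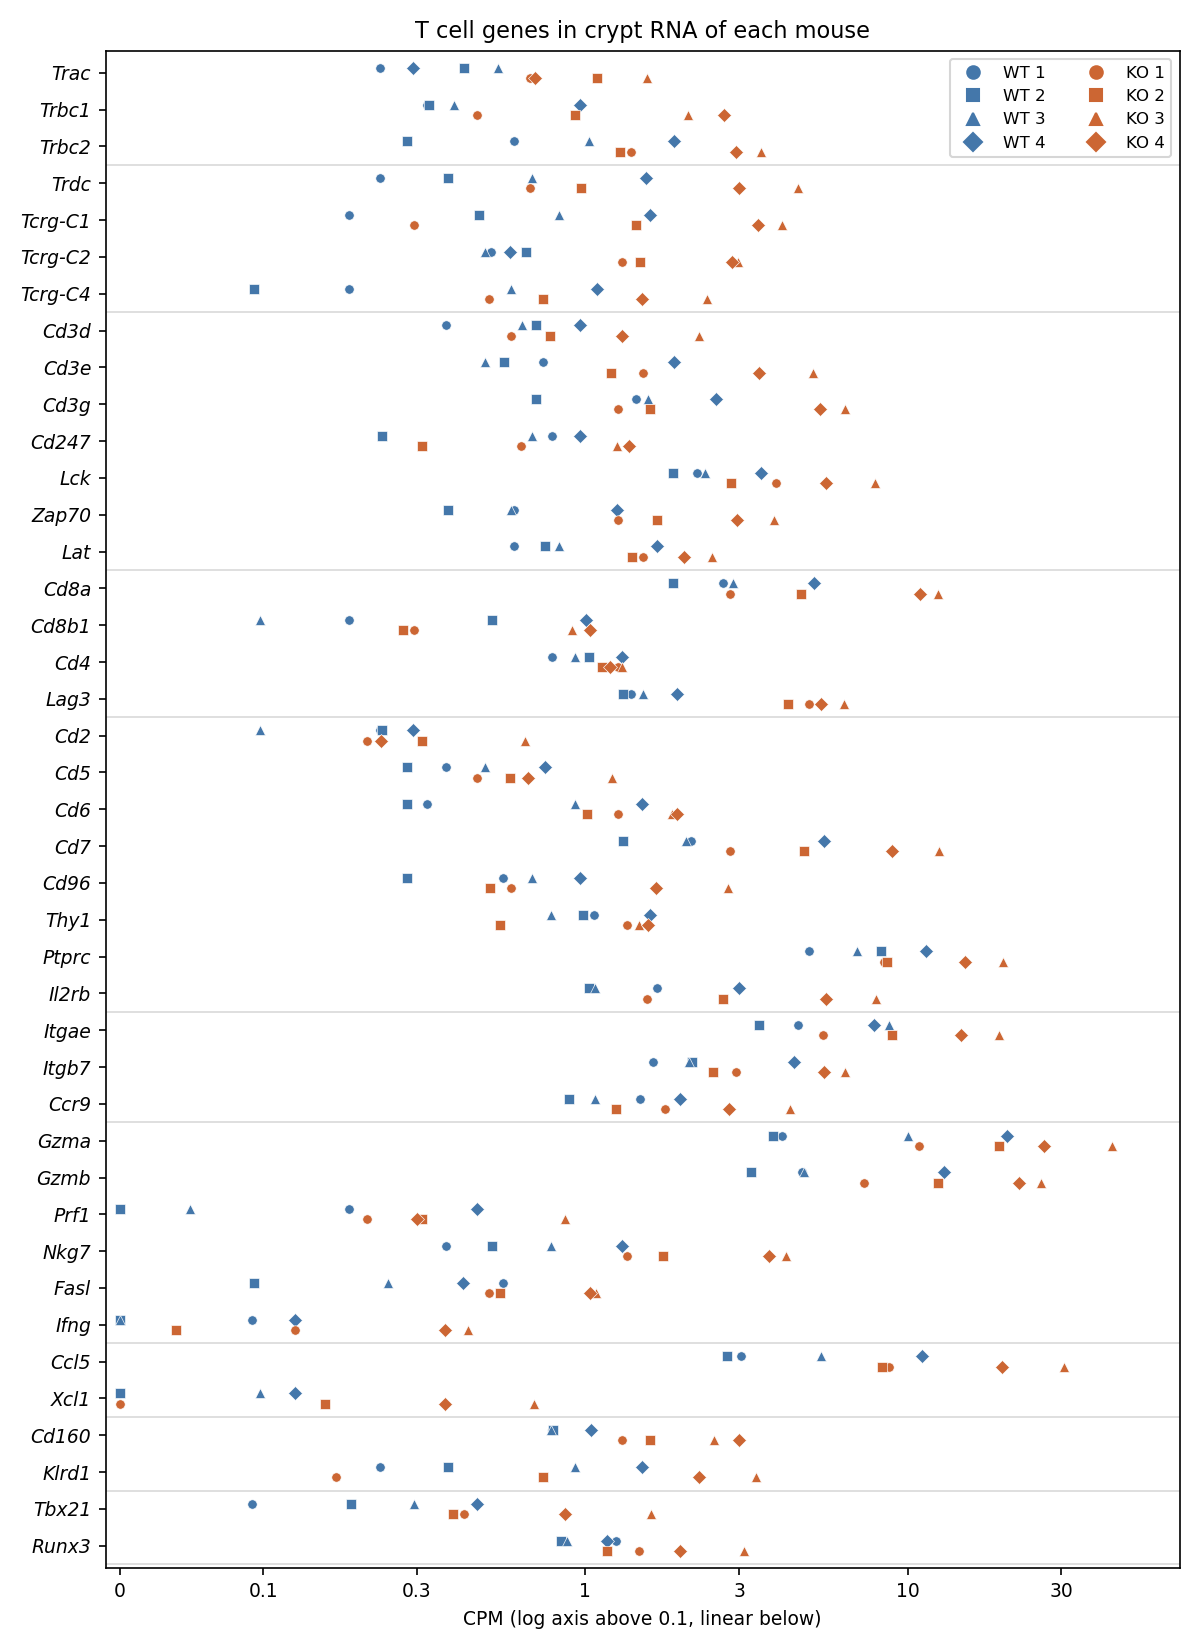
Level of each of the 41 T cell genes in CPM (horizontal axis, logarithmic above 0.1 and linear below) in each of the 8 mice, with WT in blue, KO in orange and a marker shape for each mouse number. KO mouse 3 is the highest mouse for 35 of the genes, and the WT and KO points overlap for all but 6.

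Same-numbered mice were set against each other, since over all genes mice with the same number deviated together from their genotype means. The labels name no pairs, and over autosomal genes the correlation was below 0.1 in pairs 1 and 3, so this pairing is uncertain. KO over WT, the summed level was 1.75 in pair 1, 2.40 in pair 2, 4.03 in pair 3 and 1.65 in pair 4. The KO mouse was the higher for 34, 39, 41 and 36 of the 41 genes in these pairs. In the mice with Y-chromosome transcripts the ratio of the summed level was 2.07, and in those with Xist it was 2.48. Without KO mouse 3 the ratio over all mice was 1.86, and without WT mouse 4 it was 3.10.

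Every one of the 41 genes had a higher mean CPM in KO than in WT. In the model the 37 genes had log2 fold changes from 0.15 (Thy1) to 1.94 (Tcrg-C2), with a median of 1.25. With a threshold of 0.05 on the unadjusted p, 22 of the 37 genes passed as higher in KO and 0 as lower, where 5.33% of all genes tested were higher and 3.05% lower. None passed an adjusted p of 0.05, which 0.00621% of all genes did, and DESeq2 put 4 past it (Lag3, Nkg7, Tcrg-C2 and Zap70), along with 0.577% of all genes. Lag3 alone of them passed it in edgeR without the filter, and with the Xist or Y group as a covariate. A replicate block put 31 of the 37 past the unadjusted line, with 7.14% of all genes then higher. These counts restate how the genes were chosen. The count of 22 was 7 without KO mouse 3 and 12 without KO mouse 4, when 2.99% and 3.69% of all genes were higher. It was 11, 9 and 10 without WT mouse 1, 2 or 3, with 4.06%, 4.38% and 3.90% of all genes higher. It was 29 without WT mouse 4, 29 without KO mouse 1 and 27 without KO mouse 2, with 6.41%, 7.94% and 5.52%.

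In 6 of the 41 genes (Trac, Tcrg-C2, Zap70, Lag3, Nkg7 and Cd160) every KO mouse lay above every WT mouse, and in 0 below. Over all genes tested these shares were 2.17% and 1.87%. The 6 lie apart in GRCm38, Trac at chr14:54220521-54224206, Tcrg-C2 at chr13:19304649-19307551, Zap70 at chr1:36761798-36782818, Lag3 at chr6:124904361-124911705, Nkg7 at chr7:43437073-43438249 and Cd160 at chr3:96798763-96829351. Just inside that line, Zap70 was at 1.25 CPM in the highest WT mouse and 1.26 in the lowest KO mouse. Just outside it, Runx3 was at 1.25 CPM in the highest WT mouse and 1.16 in the lowest KO mouse.

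**Figure D2:**
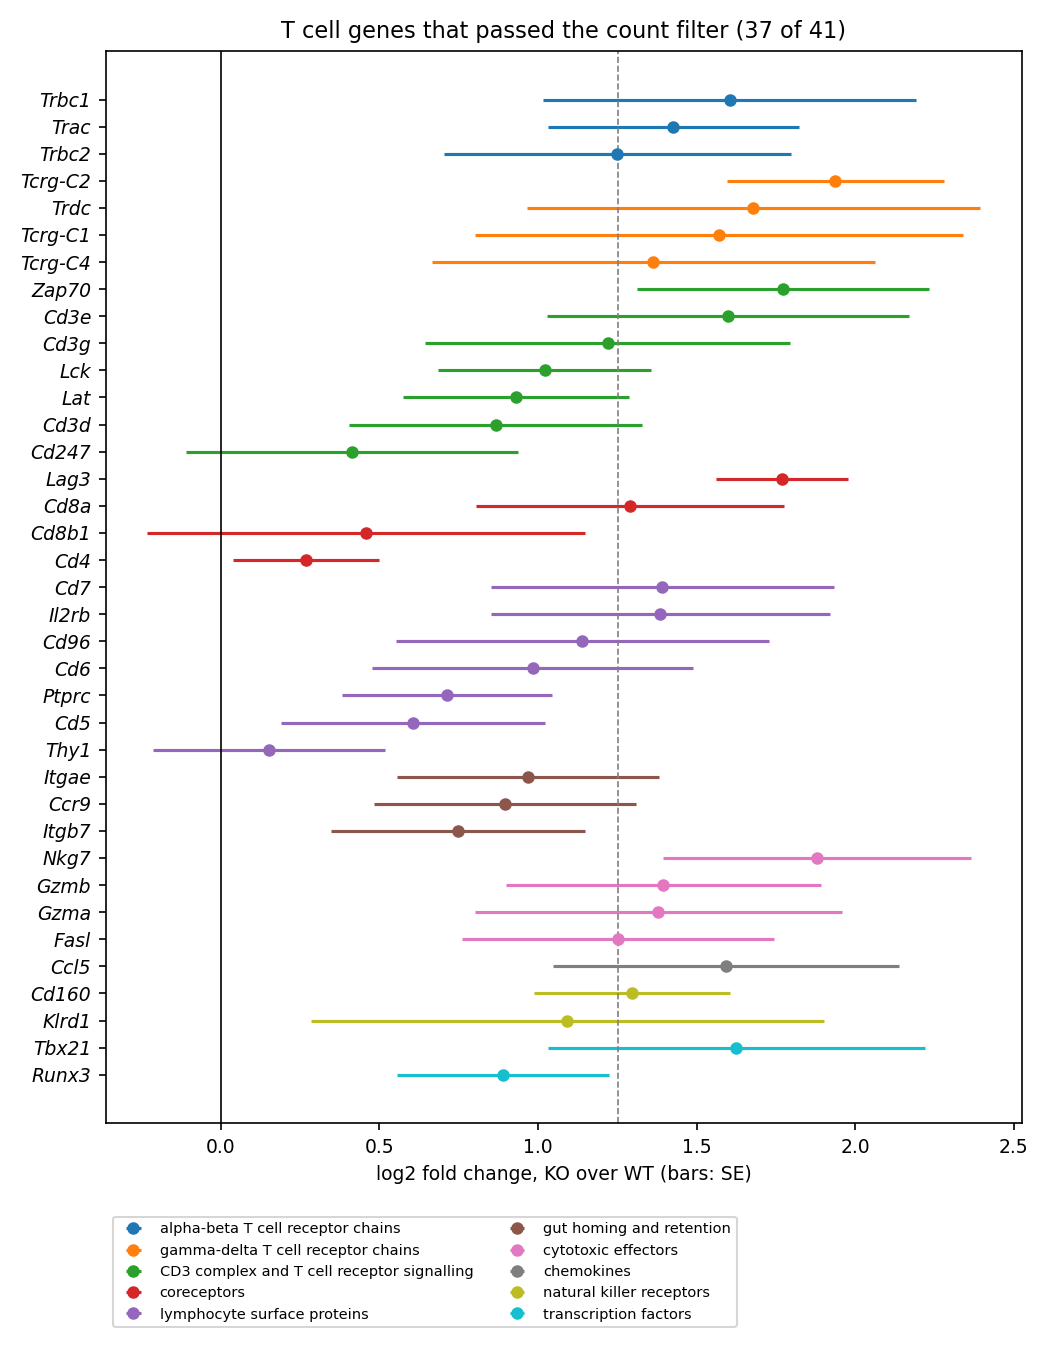
Log2 fold change of KO over WT (horizontal axis) with its SE for the 37 T cell genes that passed the count filter, coloured by role, with a solid line at 0 and a dashed line at their median of 1.25. All lie to the right of 0, from 0.15 for Thy1 to 1.94 for Tcrg-C2.

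The T cell receptor is built from an alpha and a beta chain or from a gamma and a delta chain, each with a variable and a constant part. All alpha chains share the constant gene Trac and all delta chains Trdc, while beta and gamma chains use any of several constant genes. Reads on the constant genes count receptor mRNA whatever the variable part. The beta constant genes Trbc1 and Trbc2 are near copies, and the gamma constant genes Tcrg-C1 and Tcrg-C2 are close to each other, which bears on how reads could be divided between them. In GENCODE M21 on GRCm38, exon 1 of Trbc1 and exon 1 of Trbc2 are both 375 bases long, wholly coding, and differ at 1 base. A stretch of 120 bases around that base is given 5′ to 3′, with the differing base in capitals, from chr6:41538417-41538536 (+) for Trbc1 and chr6:41546929-41547048 (+) for Trbc2.
Trbc1: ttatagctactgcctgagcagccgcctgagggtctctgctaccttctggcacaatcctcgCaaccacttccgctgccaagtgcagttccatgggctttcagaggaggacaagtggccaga
Trbc2: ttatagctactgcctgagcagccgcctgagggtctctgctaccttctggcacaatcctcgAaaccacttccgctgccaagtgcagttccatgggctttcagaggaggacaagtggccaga

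Of all windows of 100 bases in the longest Trbc1 transcript, 28.7% are found unchanged in that of Trbc2, and 30.9% in the other direction. The values of these 2 genes are thus uncertain one by one, and how reads that match both were treated is not given in the sources used here. For Trac, Trdc and Tcrg-C4 no window of 50 bases was shared with another of the constant genes compared. Exon 1 of Tcrg-C1 and that of Tcrg-C2 are identical at 321 of 330 bases, and 17.9% of the windows of 50 bases of Tcrg-C1 are found in Tcrg-C2, but 0.606% of those of 100 bases. Tcrg-C4 and Tcrg-C1 are identical at 271 of 330 bases. The first 120 bases of exon 1 show this, with the positions where the 3 genes are not all alike in capitals, from chr13:19214103-19214222 (+) for Tcrg-C1, chr13:19307432-19307551 (-) for Tcrg-C2 and chr13:19344558-19344677 (+) for Tcrg-C4.
Tcrg-C1: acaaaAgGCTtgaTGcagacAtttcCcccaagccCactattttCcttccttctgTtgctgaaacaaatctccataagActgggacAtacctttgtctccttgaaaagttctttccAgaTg
Tcrg-C2: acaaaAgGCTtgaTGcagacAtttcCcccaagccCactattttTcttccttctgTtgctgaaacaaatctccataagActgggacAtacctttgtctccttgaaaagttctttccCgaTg
Tcrg-C4: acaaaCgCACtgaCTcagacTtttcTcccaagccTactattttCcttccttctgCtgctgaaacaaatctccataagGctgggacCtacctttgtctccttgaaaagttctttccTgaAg

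Trac, the only alpha constant gene, had 5, 9, 11 and 7 reads in WT mice and 16, 28, 36 and 21 in KO mice (log2 fold change 1.43, SE 0.40). The genotypes did not overlap, and WT mouse 4, the highest WT mouse for most T cell genes, was here below WT mice 2 and 3. Trbc1 had 7, 7, 8 and 23 reads in WT and 11, 24, 48 and 81 in KO (1.60, SE 0.59). Trbc2 had 13, 6, 21 and 45 reads in WT and 33, 33, 81 and 88 in KO (1.25, SE 0.55). For both beta genes WT mouse 4 lay among the KO mice.

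Among the gamma-delta chains, Trdc, the only delta constant gene, had 5, 8, 14 and 37 reads in WT and 16, 25, 106 and 90 in KO (log2 fold change 1.68, SE 0.72). Tcrg-C1 had 4, 10, 17 and 38 reads in WT and 7, 37, 94 and 103 in KO (1.57, SE 0.77). In both, mice 3 and 4 of either genotype were above mice 1 and 2, and the genotypes overlapped. Exons on the opposite strand cover 7.84% of the exon bases of Trdc. Tcrg-C4 was alike, with 4, 2, 12 and 26 reads in WT and 12, 19, 55 and 45 in KO (1.36, SE 0.70). Tcrg-C2 behaved otherwise: it had 11, 14, 10 and 14 reads in WT, even over the 4 mice, and 31, 38, 69 and 86 in KO, with no overlap (1.94, SE 0.34).

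The gamma-delta chains took 49.0%, 60.7%, 57.0% and 60.5% of the reads on the constant genes in the set in WT mice 1 to 4 and 52.4%, 58.3%, 66.3% and 63.0% in KO mice 1 to 4. Reads on Tcrg-C3 were not part of this share. The mean was 56.8% ± 5.49 (SD, n = 4) in WT and lay 3.20 percentage points higher in KO, where the SD was 6.03 (n = 4), so the difference was smaller than the spread within either genotype. The difference was 0.592 points without WT mouse 1, 1.11 without KO mouse 3 and 5.74 without KO mouse 1. On 49 reads in WT mouse 1 the exact 95% binomial (Clopper-Pearson) interval ran from 34.4% to 63.7%, and on 514 reads in KO mouse 4 from 58.7% to 67.2%. Such intervals cover counting error only. Per length, as a share of summed FPKM, the gamma-delta chains took 46.2% ± 5.31 in WT and 49.4% ± 5.21 in KO (SD, n = 4). Scaled for depth, the summed CPM of the alpha-beta chains was 2.65-fold and that of the gamma-delta chains 3.19-fold higher in KO, and the genotypes overlapped for both sums.

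**Figure D3:**
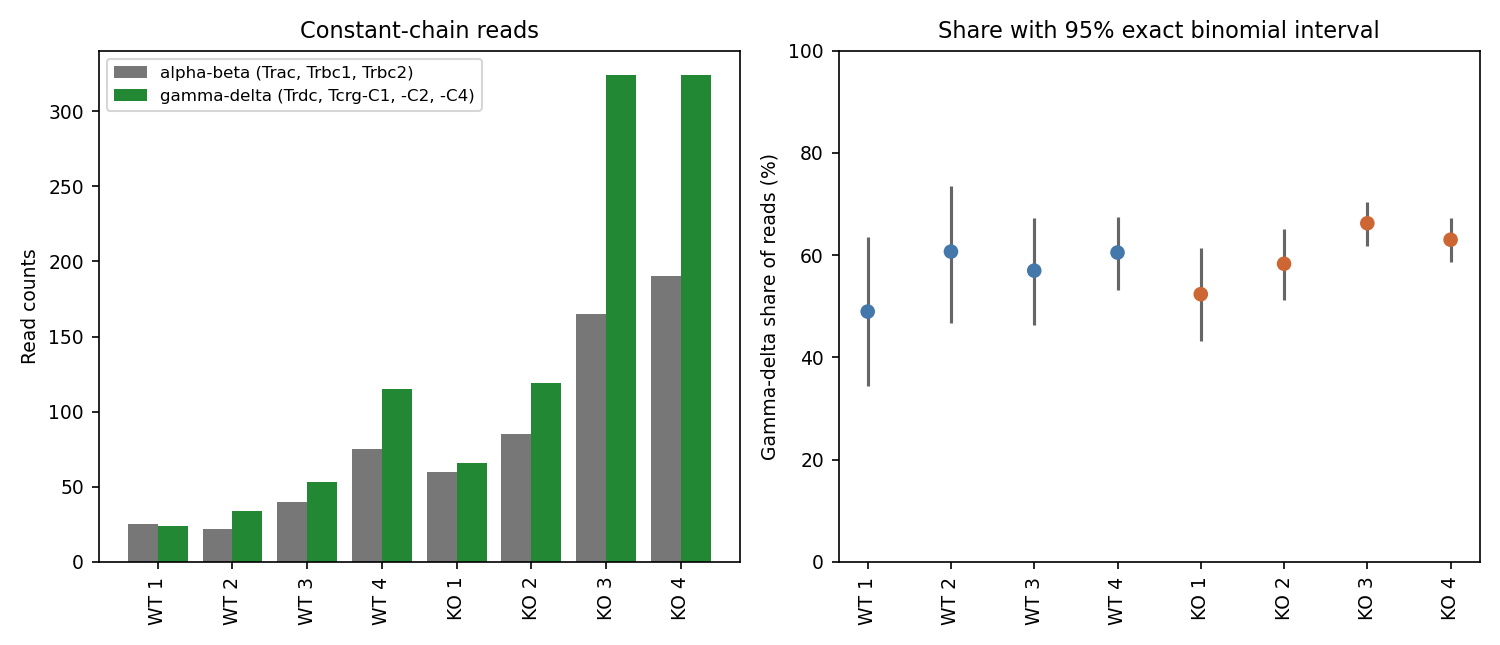
Reads on the alpha-beta and gamma-delta constant genes in each mouse (left, bars) and the gamma-delta share of them in percent with its exact 95% binomial interval (right, WT in blue, KO in orange). Both bars are tallest in KO mice 3 and 4, while the share stays between 49.0% and 66.3% in all 8 mice.

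The CD3 chains carry the signal of the receptor into the cell, where the kinases Lck and Zap70 and the adaptor Lat pass it on. Cd3e had 16, 12, 10 and 45 reads in WT and 36, 31, 118 and 104 in KO (log2 fold change 1.60, SE 0.57). Cd3g had 31, 15, 32 and 61 reads in WT and 30, 41, 148 and 161 in KO (1.22, SE 0.57), and Cd3d 8, 15, 13 and 23 in WT and 14, 20, 52 and 39 in KO (0.87, SE 0.46). In all 3, WT mouse 4 lay above the lower KO mice. Zap70 had 13, 8, 12 and 30 reads in WT and 30, 43, 89 and 89 in KO (1.77, SE 0.46), and did not overlap once scaled to CPM. Lck, with 1.87 to 3.51 CPM in WT and 2.83 to 7.92 in KO (1.02, SE 0.34), and Lat, with 0.601 to 1.67 in WT and 1.40 to 2.47 in KO (0.93, SE 0.36), differed less. Cd247, the zeta chain, was at 0.234 to 0.961 CPM in WT and 0.310 to 1.36 in KO (0.41, SE 0.52). Exons of Pou2f1 on the opposite strand and of a further gene cover 60.3% of the exon bases of Cd247, so its reads are less sure than those of the other chains.

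The coreceptors differed among themselves. Cd8a was at 2.68, 1.87, 2.88 and 5.14 CPM in WT and 2.81, 4.66, 12.5 and 10.9 in KO (log2 fold change 1.29, SE 0.49). Cd8b1, the beta chain that conventional CD8+ T cells pair with Cd8a, had 4, 11, 2 and 24 reads in WT and 7, 7, 21 and 31 in KO (0.46, SE 0.69). Cd4, the coreceptor of helper T cells, was nearly level, at 0.786, 1.03, 0.928 and 1.30 CPM in WT and 1.26, 1.13, 1.30 and 1.20 in KO (0.27, SE 0.23). Per length, Cd8a was 5.91, 1.48 and 2.09 times Cd8b1 in WT mice 1, 2 and 4 and 3.90 to 6.99 times in KO. In WT mouse 3 it was 12.0 times, but on 2 reads of Cd8b1, under the floor. Both the lowest and the highest ratio were thus those of WT mice. Cd8a was 3.78, 2.02, 3.44 and 4.40 times Cd4 in WT and 2.48, 4.59, 10.6 and 10.1 times in KO. The high ratios were those of KO mice 3 and 4, and KO mouse 1 lay inside the WT range.

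Lag3 (ENSMUSG00000030124), an inhibitory receptor that binds MHC class II and lies near Cd4, had the smallest SE of the 37 genes. It had 30, 28, 31 and 46 reads in WT and 118, 110, 147 and 162 in KO. The mean was 1.53 CPM ± 0.273 in WT and 5.24 CPM ± 0.877 in KO (SD, n = 4), and the lowest KO mouse (4.27 CPM) was well above the highest WT mouse (1.92 CPM). Its log2 fold change was 1.77 (SE 0.21). Unlike the CD3 genes, it varied little within a genotype, by 1.47 times over the WT mice and 1.49 times over the KO mice, where Cd3e varied by 3.85 and 4.25 times.

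To set each gene against the number of T cell reads in its library, reads were divided by those of Cd3d, Cd3e and Cd3g together. Lag3 then gave 0.545, 0.667, 0.564 and 0.357 in WT and 1.48, 1.20, 0.462 and 0.533 in KO. Only KO mice 1 and 2 were above WT on this scale, and KO mice 3 and 4 were inside the WT range. Zap70 gave 0.190 to 0.236 in WT and 0.280 to 0.467 in KO. Nkg7 gave 0.145 to 0.291 in WT and 0.305 to 0.489 in KO. These 2 of the 41 genes had every KO mouse above every WT mouse per CD3 read, 0 had it below and 39 overlapped. Over all genes tested, the shares on this scale were 0.0186% above and 3.58% below, and since the 41 genes were chosen on the same mice, nothing is read from this. Gzma and Gzmb overlapped, with 1.60 to 3.78 and 1.67 to 2.40 in WT against 2.62 to 5.39 and 1.88 to 3.49 in KO. Thy1 had a ratio of the genotype means of 0.541 and Cd4 of 0.636.

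**Figure D4:**
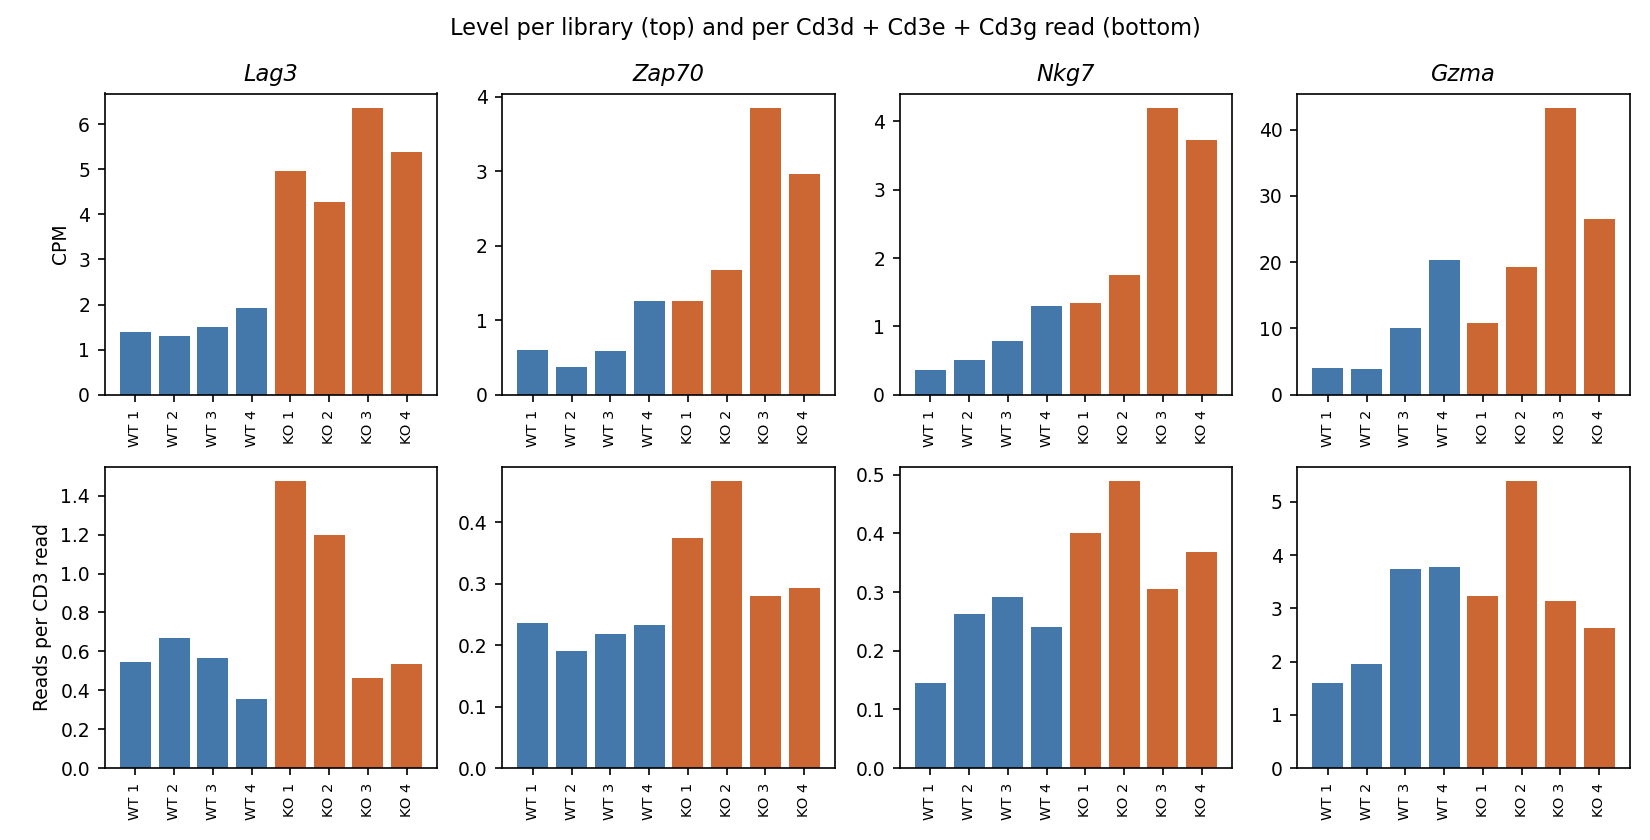
Lag3, Zap70, Nkg7 and Gzma in each mouse, as CPM (top row) and as reads per read of Cd3d, Cd3e and Cd3g (bottom row), with WT in blue and KO in orange. Lag3 is above 4 CPM in every KO mouse, but per CD3 read its KO mice 3 and 4 (0.462 and 0.533) fall within the WT range.

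Among the cytotoxic effectors was Gzma, the gene of the highest level per length in the set. Gzma, a granzyme released into target cells, was at 9.45 FPKM ± 7.63 in WT and 24.8 FPKM ± 13.6 in KO (SD, n = 4), with 88, 82, 206 and 487 reads in WT and 259, 496, 1000 and 798 in KO (log2 fold change 1.38, SE 0.58). Gzmb, the granzyme that cleaves caspases, was at 4.44 FPKM ± 3.04 in WT and 11.8 FPKM ± 5.94 in KO (SD, n = 4), with 102, 70, 98 and 310 reads in WT and 174, 321, 598 and 668 in KO (1.39, SE 0.50). WT mouse 4 was above KO mice 1 and 2 for both. Nkg7, a protein of cytotoxic granules, had 8, 11, 16 and 31 reads in WT and 32, 45, 97 and 112 in KO (1.88, SE 0.49). Fasl, the ligand of the death receptor Fas, had 2 to 12 reads in WT and 12 to 31 in KO (1.25, SE 0.49). Perforin (Prf1) had 4, 0, 1 and 11 reads in WT and 5, 8, 20 and 9 in KO, and Ifng, the interferon of type II, 2, 0, 0 and 3 in WT and 3, 1, 10 and 11 in KO. Prf1 and Ifng were too low for the model. Exons of another gene on the same strand cover 25.9% of the exon bases of Ifng.

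Runx3 and Tbx21, the transcription factors in the set, act in CD8+ and cytotoxic cells. Tbx21 had 2, 4, 6 and 11 reads in WT and 10, 10, 37 and 26 in KO (log2 fold change 1.63, SE 0.59). Runx3 was at 0.841 to 1.25 CPM in WT and 1.16 to 3.12 in KO (0.89, SE 0.33). The letters that such factors are known to bind were looked for in promoter windows from 250 bases before to 50 bases after a gene start, taken from RefSeq on GRCm38.p6. Windows were found for 23 of the 41 genes, 29 windows in all. The RUNX core TGTGGT, on either strand, was in 12 of the 29 windows (41.4%), which belong to 11 genes, and in 16.8% of all 32851 windows. The T-box core TCACAC, on either strand, was in 7 of the 29 (24.1%), from 5 genes, and in 14.5% of all. Some genes have several windows, and a match is a description of the letters and not a binding site.

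The windows of the 3 granule genes are given 5′ to 3′ in the sense of the gene, with each match to either core in capitals: Gzma at chr13:113100932-113101231 (-), Gzmb at chr14:56262285-56262584 (-) and Nkg7 at chr7:43436888-43437187 (+).
Gzma: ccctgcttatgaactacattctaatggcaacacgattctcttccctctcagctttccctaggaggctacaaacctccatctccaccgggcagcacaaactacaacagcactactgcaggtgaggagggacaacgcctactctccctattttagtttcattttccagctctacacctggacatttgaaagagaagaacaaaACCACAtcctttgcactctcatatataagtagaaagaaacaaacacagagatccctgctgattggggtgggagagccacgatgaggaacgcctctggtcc
Gzmb: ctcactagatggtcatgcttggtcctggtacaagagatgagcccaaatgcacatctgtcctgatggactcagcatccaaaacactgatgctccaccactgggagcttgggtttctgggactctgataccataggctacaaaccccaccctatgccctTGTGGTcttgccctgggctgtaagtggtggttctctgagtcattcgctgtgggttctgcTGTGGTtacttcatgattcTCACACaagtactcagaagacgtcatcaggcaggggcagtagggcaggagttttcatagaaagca
Nkg7: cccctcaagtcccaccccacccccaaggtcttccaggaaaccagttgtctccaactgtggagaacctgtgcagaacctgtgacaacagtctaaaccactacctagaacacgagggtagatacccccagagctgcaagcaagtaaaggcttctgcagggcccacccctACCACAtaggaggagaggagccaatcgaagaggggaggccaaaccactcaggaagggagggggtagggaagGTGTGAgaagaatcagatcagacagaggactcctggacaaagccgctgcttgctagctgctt

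In Gzma the RUNX core begins 50 bases before the gene start, on the opposite strand, and the T-box core is not in the window. In Gzmb the RUNX core is found at 93 and 34 bases before the start and the T-box core at 15 bases. In Nkg7 both are on the opposite strand, at 83 and 12 bases before the start. No match overlaps another.

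Of the chemokines, Ccl5 was second to Gzma in level per length. It had 66, 59, 110 and 265 reads in WT and 208, 215, 707 and 593 in KO (log2 fold change 1.59, SE 0.55), and WT mouse 4 was above KO mice 1 and 2 in CPM (11.1 against 8.73 and 8.34). Xcl1, which draws dendritic cells, had 0, 0, 2 and 3 reads in WT and 0, 4, 16 and 11 in KO, and no fold is given at that depth. Of the receptors shared with natural killer cells, Cd160 had 17, 17, 16 and 25 reads in WT and 31, 41, 58 and 90 in KO, with no overlap (1.30, SE 0.31). Klrd1, the CD94 chain, had 5, 8, 19 and 36 reads in WT and 4, 19, 78 and 68 in KO (1.09, SE 0.81). The lowest mouse for Klrd1 was thus a KO mouse.

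Among the surface proteins, Cd7 was at 2.13, 1.31, 2.05 and 5.51 CPM in WT and 2.81, 4.77, 12.5 and 8.94 in KO (log2 fold change 1.39, SE 0.54). Il2rb, the receptor chain that passes on Il2 and Il15, was at 1.66, 1.03, 1.07 and 3.01 CPM in WT and 1.55, 2.68, 8.01 and 5.59 in KO (1.39, SE 0.54). Both were highest in KO mice 3 and 4, with WT mouse 4 above KO mice 1 and 2. Cd96 (1.14, SE 0.59) and Cd6 (0.98, SE 0.51) had differences near 1. Ptprc, the CD45 phosphatase of all leukocytes, was at 4.94 to 11.4 CPM in WT and 8.44 to 19.7 in KO (0.71, SE 0.33), and Cd5 at 0.280 to 0.752 in WT and 0.462 to 1.21 in KO (0.61, SE 0.42). Thy1 was nearly level, at 0.781 to 1.59 CPM in WT and 0.543 to 1.56 in KO (0.15, SE 0.37). Cd2 had 2 to 7 reads in WT and 5 to 15 in KO.

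The homing genes had differences below the median of the set. Itgae was at 4.57, 3.46, 8.74 and 7.85 CPM in WT and 5.46, 8.96, 19.2 and 14.6 in KO (log2 fold change 0.97, SE 0.41). Its partner Itgb7 was at 1.62, 2.15, 2.10 and 4.43 CPM in WT and 2.94, 2.48, 6.40 and 5.52 in KO (0.75, SE 0.40). Ccr9 had 0.888 to 1.96 CPM in WT and 1.24 to 4.33 in KO (0.90, SE 0.41), and exons of other genes, Slc6a20a of the enterocyte among them, cover 21.5% of its exon bases.

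Other genes of these cells were taken from 3 lists, also written with earlier results of these data known. Of 84 such genes, 51 passed the filter, of which 7 were past an unadjusted p of 0.05 on the higher side and 1 on the lower, where 5.33% and 3.05% of all genes tested were. Their median log2 fold change was 0.30. In both directions together 8 were past that line, against 8.38% of all genes. A replicate block made these 16 and 11.3%. The count was 5 without KO mouse 3 (5.16% of all genes), 18 without KO mouse 1 (13.0%) and 20 without WT mouse 4 (9.02%). None passed an adjusted p of 0.05 (edgeR, smallest 0.429).

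Of 30 other T cell genes 20 were tested, with 4 higher and 1 lower at that line (5.33% and 3.05% of all genes tested) and a median of 0.61. Ptpn22, a phosphatase that dampens receptor signalling, had 122, 121, 55 and 104 reads in WT and 242, 322, 214 and 276 in KO, with no overlap (log2 fold change 1.16, SE 0.24). Sh2d2a, an adaptor of T cells, had 10, 19, 31 and 29 reads in WT and 48, 57, 95 and 88 in KO, and Ccr7, the receptor of naive lymphocytes that home to lymph nodes, 5, 23, 5 and 14 in WT and 33, 29, 47 and 33 in KO. Both were apart in every mouse (1.46, SE 0.37, and 1.38, SE 0.48). Ikzf3 was the fourth (1.39, SE 0.40), with overlap. Foxp3, the factor that defines regulatory T cells, was the gene on the lower side: it had 14, 14, 11 and 11 reads in WT and 6, 7, 1 and 4 in KO, with no overlap (-1.68, SE 0.45). The lowest count of Foxp3 was that of KO mouse 3, which had the highest sum of the 41 genes. The most abundant genes of this list, Bcl11b (-0.05, SE 0.09) and Tcf7 (-0.23, SE 0.14), were at 9.94 and 7.10 FPKM in WT, far above Trac at 0.393 FPKM, and did not follow the T cell genes. The paper measured Tcf-1, the protein of Tcf7, as a WNT target in crypts. How much of the RNA of Bcl11b and Tcf7 came from T cells was not tested.

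Of 34 other genes of innate-like and cytotoxic lymphocytes 14 were tested, with 2 higher, Ctsw and Cd101 (5.33% of all genes tested), and a median log2 fold change of 0.34. Cd101 had 5, 2, 6 and 10 reads in WT and 13, 11, 19 and 28 in KO, without overlap (1.37, SE 0.45). Ctsw, a protease of cytotoxic cells, overlapped (1.05, SE 0.43). The leading genes by level, Hopx (-0.09, SE 0.12) and Jaml (-0.34, SE 0.16), were at 41.3 and 16.8 FPKM in WT, and how much of that RNA came from lymphocytes was not tested. The natural killer gene Ncr1 had 1 read in all 8 mice together.

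Of 20 epithelial partners of these lymphocytes 17 were tested, with 1 higher, near the 5.33% of all genes tested, 0 lower and a median log2 fold change of 0.19. The 1 gene was Btnl6, a butyrophilin-like gene, at 48.8 FPKM ± 16.5 in WT and 83.2 FPKM ± 25.2 in KO (SD, n = 4), with 1600, 1170, 1897 and 2944 reads in WT and 2315, 3471, 4728 and 4448 in KO (0.76, SE 0.27). WT mouse 4 was again among the KO mice. Cdh1, the E-cadherin that Itgae and Itgb7 bind, was level (0.00, SE 0.08).

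Markers of other cells were summed in the same way, and those of the villus followed the order of the T cell genes in all mice but KO mouse 1. The 12 villus enterocyte markers summed to 2399, 1593, 2453 and 3964 CPM in WT and 2292, 3207, 8957 and 5407 CPM in KO. KO mouse 3 was highest, followed by KO mouse 4, WT mouse 4 and KO mouse 2, and WT mouse 2 was lowest, which is also the order of the summed T cell genes at these places. KO mouse 1 broke the order: its villus sum lay below those of WT mice 1 and 3, and its T cell sum of 84.6 CPM above theirs. KO over WT, pair 1 was at 0.955 for the villus markers and 1.75 for the T cell genes. All 12 had a positive log2 fold change, as had 46.1% of all genes tested, and 3 were higher at an unadjusted p under 0.05, as were 5.33% of all. Their median was 0.86. Fabp2 (0.88, SE 0.49) and Apoa1 (1.78, SE 0.61) led by level, and no marker of the list was at 0 in any mouse. The part of villus material in the difference of the T cell genes was not tested.

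Per 1000 CPM of villus enterocyte markers, the T cell genes summed to 20.2, 27.8, 27.1 and 30.3 CPM in WT and 36.9, 33.2, 29.8 and 36.7 in KO. On this scale the KO mean was 1.30 times the WT mean, against 2.35 before it, and KO mouse 3 lay below WT mouse 4. Zap70, Nkg7 and Tbx21 were the 3 of the 41 genes with every KO mouse above every WT mouse, 0 were below and 38 overlapped, Lag3 among them (0.485 to 0.821 in WT against 0.710 to 2.16 in KO). Over all genes tested the shares on this scale were 0.0745% above and 2.57% below, and again nothing is read from them.

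The 7 pan-epithelial markers summed to 8846 to 9318 CPM in WT and 9972 to 11427 in KO, without overlap, with Krt8 (0.27, SE 0.09) and Krt19 (0.20, SE 0.08) apart in every mouse. The 10 markers of crypt stem and proliferating cells summed to 5729 to 6702 CPM in WT and 4634 to 5618 in KO, also without overlap and in the other direction, with Olfm4 (-0.34, SE 0.12) and Smoc2 (-0.31, SE 0.09) apart in every mouse and Pcna level (-0.02, SE 0.11). The part of these epithelial sums in the difference of the T cell genes was not tested.

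Of other leukocytes, the 12 B and plasma cell markers summed to 19.8 to 34.4 CPM in WT and 23.0 to 38.5 in KO, with 1 of 10 tested higher at an unadjusted p under 0.05 (5.33% of all genes) and Tnfrsf17 at 0 in some mice. The 14 myeloid markers summed to 47.6 to 51.9 CPM in WT and 42.4 to 56.8 in KO, with none of 10 past that line and a median log2 fold change of -0.06, and Fcgr1, S100a8 and S100a9 were at 0 in some mice. Neither sum was apart between the genotypes. The 12 stroma and vessel markers summed to 11.8 to 24.0 CPM in WT and 16.3 to 29.0 in KO, with none of 6 past it and Pdgfra and Lum at 0 in some mice. The 10 markers of innate lymphoid and mast cells summed to 74.3 to 85.4 CPM in WT and 69.9 to 93.8 in KO, with 1 of 5 tested higher at that line (5.33% of all genes). Of these, Il22 had 0 reads in every WT mouse and 1, 2, 1 and 6 in KO, too few for the model, and Il23r and Il1rl1 were at 0 in some mice. In this list of 10, 5 markers had fewer than 10 reads in every WT mouse, and which cells the reads of the others came from was not tested. The 5 markers of red blood cells summed to 1.42 to 4.44 CPM in WT and 0.964 to 2.06 in KO, with the 1 tested lower at that line (3.05% of all genes) and Hba-a2 and Hbb-bt at 0 in some mice. By level, these lists were led by Jchain and Cd79b (log2 fold change -0.13, SE 0.28, and 0.38, SE 0.33) for B and plasma cells, and by Cd68 and Cd14 (-0.01, SE 0.30, and -0.11, SE 0.36) for myeloid cells. Vim and Dcn led for stroma (0.22, SE 0.20, and 0.85, SE 0.51), and Areg for innate lymphoid and mast cells (0.76, SE 0.20). Hba-a1 (-1.26, SE 0.54) and Hbb-bs, which was not tested, led for red blood cells. The genotypes overlapped for all 9 of these genes.

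**Figure D5:**
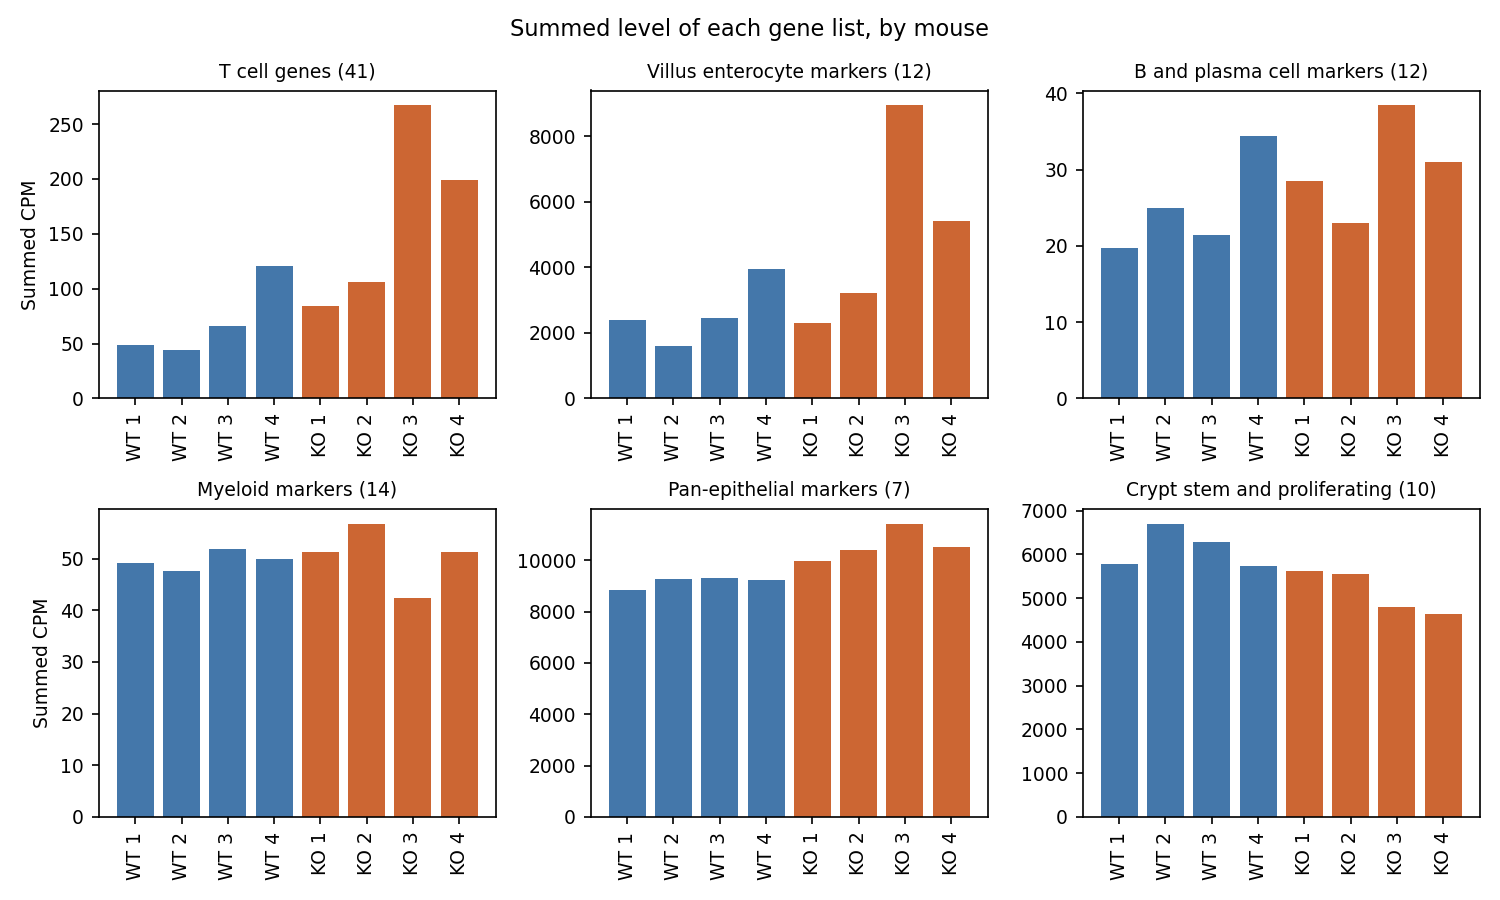
Summed CPM (vertical axes, each from 0) of the 41 T cell genes and of marker lists of 5 other cell classes in each mouse, WT in blue and KO in orange, with the number of genes in brackets. The villus enterocyte markers, like the T cell genes, are highest in KO mice 3 and 4 and in WT mouse 4, while the myeloid markers stay between 42.4 and 56.8 CPM.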

How the data were processed

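RNA of crypts from 4 WT and 4 KO mice was sequenced, and the submitters' processing notes name CASAVA, HISAT2 2.0.5 and featureCounts 1.5.0-p3. The strand setting and the treatment of multi-mapped reads are not given in the sources used here. The authors deposited unnormalized counts of reads for each gene. The authors deposited FPKM beside them, each a count divided by gene length and a constant for the mouse. Columns of the authors' own fold changes and p-values were not used.

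The 41 genes and all gene lists were chosen with earlier results of these data known. KO and WT were compared with edgeR 4.0.16 in R 4.3.3 (filterByExpr with minimum count 10, TMM, quasi-likelihood test, all 8 mice, genotype as the only term, Benjamini-Hochberg over 16109 genes, threshold 0.05), and CPM used the same TMM factors. Alternatives were DESeq2 1.42.0, RLE factors, no filter, limma 3.58.1 on log2(FPKM + 1) at a mean FPKM of at least 0.1, a replicate block, the Xist or Y group as covariate and leaving out each mouse. Each Xist or Y group alone and the ratio to villus markers were added after seeing the data. The code was tested on simulated counts. All 41 genes are named. Of other lists, genes are named that had an adjusted p under 0.05, or an unadjusted p under 0.05 without overlap, or the 2 highest FPKM of the list; others, such as Ikzf3, Ctsw and Ncr1, were chosen after their values were seen. Some genes of these lists are not reported here.

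Same-numbered mice correlated at 0.129 to 0.501 in their deviations from the genotype means (0.0904 to 0.474 over autosomal genes), the highest mean of the 24 possible matchings, so the numbers were taken to pair the mice. The chi-square between libraries of a genotype was 20.9 to 76.5 per degree of freedom, so none was counted as a copy of another. Replicates are separate mice.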

Additional observations from a re-analysis of the deposited data

Results flagged for a closer look

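Of 84 sets of 4 mice examined (each of the 41 genes and their sum, in each genotype), 4 held a mouse far from the other 3 of its genotype; chance alone flags about 1 set in 20. Trbc1 was at 0.961 CPM in WT mouse 4, against 0.323 to 0.391 in the other WT mice. Gzmb was at 13.0 CPM in WT mouse 4, against 3.27 to 4.79. Cd160 was at 1.04 CPM in WT mouse 4, against 0.781 to 0.794. Prf1 was at 0.865 CPM in KO mouse 3, against 0.210 to 0.310 in the other KO mice.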

How the results depend on the processing

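Of 589 log2 fold changes of single T cell genes under the alternatives, 547 moved by less than the spread between mice, 42 by more, and 0 of the values past an unadjusted p of 0.05 changed sign. Cd247 (-0.11) and Thy1 (-0.11) turned negative in the mice numbered 1 and 2 alone, a split chosen after seeing the data, where Cd8b1, Klrd1 and Tbx21 did not pass the filter. The median log2 fold change was 0.43 with limma on log2(FPKM + 1), a scale that compresses low genes, and 0.95 to 1.57 with single mice left out. The ratio of summed CPM ran from 1.86 to 3.10 and the difference in gamma-delta share from 0.592 to 5.74 points with single mice left out. The count of T cell genes higher at an unadjusted p under 0.05 was 22, with 5.33% of all genes tested higher. With that share in brackets, it was 31 with the replicate block (7.14%) and 30 with the Xist or Y covariate (7.26%). It was 28 without the filter (4.20%), 28 in mice 3 and 4 alone (8.31%) and 14 in mice 1 and 2 alone (2.78%). DESeq2 gave 26 (6.10%), RLE factors 22 (5.59%) and limma 16 (4.64%). With single mice left out it was 7 to 29 (2.99% to 7.94%). The pathway count past that line in either direction was 8, against 8.38% of all genes tested. It was 16 with the replicate block (11.3%), 16 with the Xist or Y covariate (11.3%), 17 without the filter (6.43%) and 18 in mice 3 and 4 alone (13.6%). With single mice left out it was 5 to 20 (5.16% to 13.0% of all genes). Over all genes, 1350 were past that line, 1815 with the replicate block, 661 in mice 1 and 2 alone, 2232 in mice 3 and 4 alone and 846 to 2133 with single mice left out. The adjusted count, 1, was 93 with DESeq2, 4 with the covariate, 4 in mice 3 and 4 alone, 2 without the filter, 0 with the replicate block, 0 in mice 1 and 2 alone and 0 to 4 with single mice left out. With the replicate block the median log2 fold change of the T cell genes stayed at 1.25. Why these counts moved was not tested. Depth limits Prf1, Ifng, Xcl1 and Cd2, which had 0 to 20 reads per mouse.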
